A study of Homo sapiens with 24 samples.

Results

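The genes described here are the brakes of JAK-STAT signalling: the 8 members of the SOCS family, SOCS1 to SOCS7 and CISH, and the SUMO ligases PIAS1 and PIAS3. They were chosen by name and not by a cutoff on a measured value, though earlier results of these data were known. They make up 10 of the 28307 genes in the count table. All 10 passed the filter on low counts in both cell lines. RNA was sequenced from the breast cancer line SUM159 and the colon cancer line SW620, grown under nifuroxazide (NIF), a nitrofuran antibiotic that is also used as an inhibitor of STAT3, or under the vehicle DMSO. Treatment lasted 30 h, and the ALDEFLUOR assay was used to sort the cells. Those with high aldehyde dehydrogenase activity are ALDHbr (labelled ALDHpos or cancer stem cells) and those with low activity ALDHneg. The paper's RNA-seq methods do not state whether the treatment or the sort came first. If the sort came last, it was applied to cells already under NIF. Whether that changed which cells were selected was not tested. The 8 groups are thus SUM159 ALDHbr, SUM159 ALDHneg, SW620 ALDHbr and SW620 ALDHneg, each under NIF and under DMSO, with 3 libraries from 3 independent experiments in every group, 24 libraries in all. No group carries a transgene or an engineered allele, and the final NIF concentration of these cultures is not given in the sources used here.

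A cytokine such as IL-6 brings its receptor chains together, the JAK kinases bound to them phosphorylate each other, the receptor and a STAT, and the STAT dimer enters the nucleus and switches on target genes. CISH, SOCS1, SOCS2 and SOCS3 are themselves such targets, and their proteins act back on the receptor complex. SOCS1 and SOCS3 inhibit the JAKs directly, CISH and SOCS2 bind phosphorylated receptors, and every SOCS protein carries a SOCS box that recruits a ubiquitin ligase. SOCS4 to SOCS7 are less tied to cytokine induction and act more on growth factor receptors and adaptors, SOCS4 and SOCS5 on the EGF receptor among them. PIAS1 and PIAS3 attach SUMO and bind activated STATs in the nucleus, PIAS3 mainly STAT3.

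The stretches of DNA just before the starts of CISH and SOCS3 are shown first, because STAT dimers bind the palindrome TTCNNNGAA and because the messages of these genes then behaved differently in these cells. RefSeq sequences of the 250 bases before a start (assembly GRCh38.p14) were found for 7 of the 10 genes, at 9 starts. SOCS2, SOCS5 and SOCS7 had no entry. In that assembly CISH spans chr3:50606489-50611774 and SOCS3 chr17:78356778-78360925, and each window below ends just before the first base of its gene, upstream of its exons. Capitals mark each match to TTCNNNGAA, a motif that reads the same on both strands.
CISH, chr3:50611775-50612024, minus strand: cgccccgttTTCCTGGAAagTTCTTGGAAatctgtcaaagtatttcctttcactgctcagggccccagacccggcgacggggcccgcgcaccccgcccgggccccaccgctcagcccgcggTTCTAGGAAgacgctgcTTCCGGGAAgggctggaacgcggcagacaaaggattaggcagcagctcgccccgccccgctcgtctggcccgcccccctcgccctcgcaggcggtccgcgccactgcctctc
SOCS3, chr17:78360926-78361175, minus strand: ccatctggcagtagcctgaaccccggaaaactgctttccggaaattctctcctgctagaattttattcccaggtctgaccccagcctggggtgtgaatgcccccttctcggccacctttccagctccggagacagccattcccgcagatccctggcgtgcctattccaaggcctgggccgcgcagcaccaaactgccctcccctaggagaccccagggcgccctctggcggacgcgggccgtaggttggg
The CISH window held 4 matches, which began 241, 230, 129 and 112 bases before the start. At least 1 match was found in 2306 of 35116 such windows (6.567%), and 4 or more in 5 of them (0.01424%). The windows of SOCS1, SOCS3, SOCS4, SOCS6, PIAS1 and PIAS3 held none, and the form of the palindrome with 4 free bases in the middle was in no window of these genes and in 5.376% of all windows. SOCS3 had another window, chr17:78359668-78359917, inside the span of the gene. The bases between it and the printed window were not searched, so sites of SOCS3 outside these windows would be missed. All matches are of letters, and binding was not measured.

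The total count per library ran from 30253187 to 43127948 (median 36520935). A gene was called when its adjusted p was under 0.05 (edgeR quasi-likelihood test, Benjamini-Hochberg adjustment over all genes tested). The labels of the lines were checked against their markers. The summed level of 10 colon epithelial markers was 14214 to 18468 CPM (the read count scaled to the effective library size) in SW620 and 483 to 766 CPM in SUM159, and that of 10 mesenchymal markers 6390 to 8669 CPM in SUM159 and at most 37.6 CPM in SW620, so both lines matched their labels. Of 5 blood cell markers the summed level was at most 5.68 CPM. ALDH1A1, the main enzyme behind the sort, stood at 127 ± 25.9 CPM (SD, n = 3) in SUM159 ALDHbr and 0.450 ± 0.0553 CPM in SUM159 ALDHneg cells under DMSO. In SW620 it was 1397 ± 50.3 against 956 ± 18.3 CPM, so the ALDHneg cells of that line were not without it, and under NIF it was 1017 ± 33.1 and 586 ± 14.3 CPM. ALDH1A3, the other gene listed as a marker of the sort, went against it in SW620. Under DMSO it was called lower in SW620 ALDHbr than ALDHneg cells, and higher in SUM159 ALDHbr cells. In these sorted bulk samples, fewer cells that express a gene and less RNA per cell cannot be told apart.

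The brakes differed most between the lines. CPM per kilobase of exon allows a rough comparison between genes. The length used is the union of all annotated exons, not that of the transcripts expressed here (5.06 kb for CISH, 1.79 kb for SOCS1). On this scale the highest levels in SUM159 ALDHbr cells under DMSO were those of PIAS3 (10.9 ± 0.737), SOCS3 (8.32 ± 0.0254) and SOCS4 (8.00 ± 0.674). The lowest was that of CISH (0.281 ± 0.0379). In SW620 ALDHbr cells the order began with SOCS7 (8.89 ± 1.15) and PIAS3 (7.85 ± 0.474) and ended with CISH (0.606 ± 0.0954), SOCS3 (0.272 ± 0.0720), SOCS1 (0.244 ± 0.127) and SOCS2 (0.0599 ± 0.0143). SOCS3 therefore stood at rank 2 of 10 in one line and at rank 8 in the other.

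Under DMSO, 9 of the 10 genes were called between SW620 and SUM159 ALDHbr cells, 5 of them lower and 4 higher in SW620, among 81.3% of all genes called in that comparison. The share of the brakes was thus close to that of the genes at large, and cell line and handling cannot be told apart. SOCS3 read 22.7, 22.8 and 22.7 CPM in the SUM159 libraries and 0.894, 0.816 and 0.521 CPM in those of SW620. No SW620 library came near SUM159, and the difference was -4.92 on the log2 scale (SE 0.12, adjusted p = 1.23e-21). SOCS2 read 7.81, 6.97 and 6.02 CPM against 0.357, 0.314 and 0.492 CPM (log2 difference -4.14, SE 0.21, adjusted p = 3.47e-15). SOCS1 read 6.40, 2.97 and 3.82 CPM against 0.485, 0.188 and 0.636 CPM (log2 difference -3.30, SE 0.33, adjusted p = 1.65e-09). SUM159 thus held more of all 3 inducible SOCS messages, whereas CISH went the other way, with 1.62, 1.41 and 1.24 CPM in SUM159 and 2.96, 2.64 and 3.59 CPM in SW620 (log2 difference 1.11, SE 0.23, adjusted p = 0.000148). Of the remaining genes SOCS7 (0.95), PIAS1 (0.70) and SOCS6 (0.48) were higher in SW620 and PIAS3 (-0.47) lower, by the log2 differences in brackets, and SOCS4 stood at 0.499 times its SUM159 level (SE 0.13 on the log2 scale). SOCS5 was the one gene not called (-0.12, 95% interval -0.29 to 0.04, adjusted p = 0.155). Scaling by library size moved the median of all genes in this comparison from -0.05 to -0.20, and SOCS5 was then called as well.

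**Figure D1:**
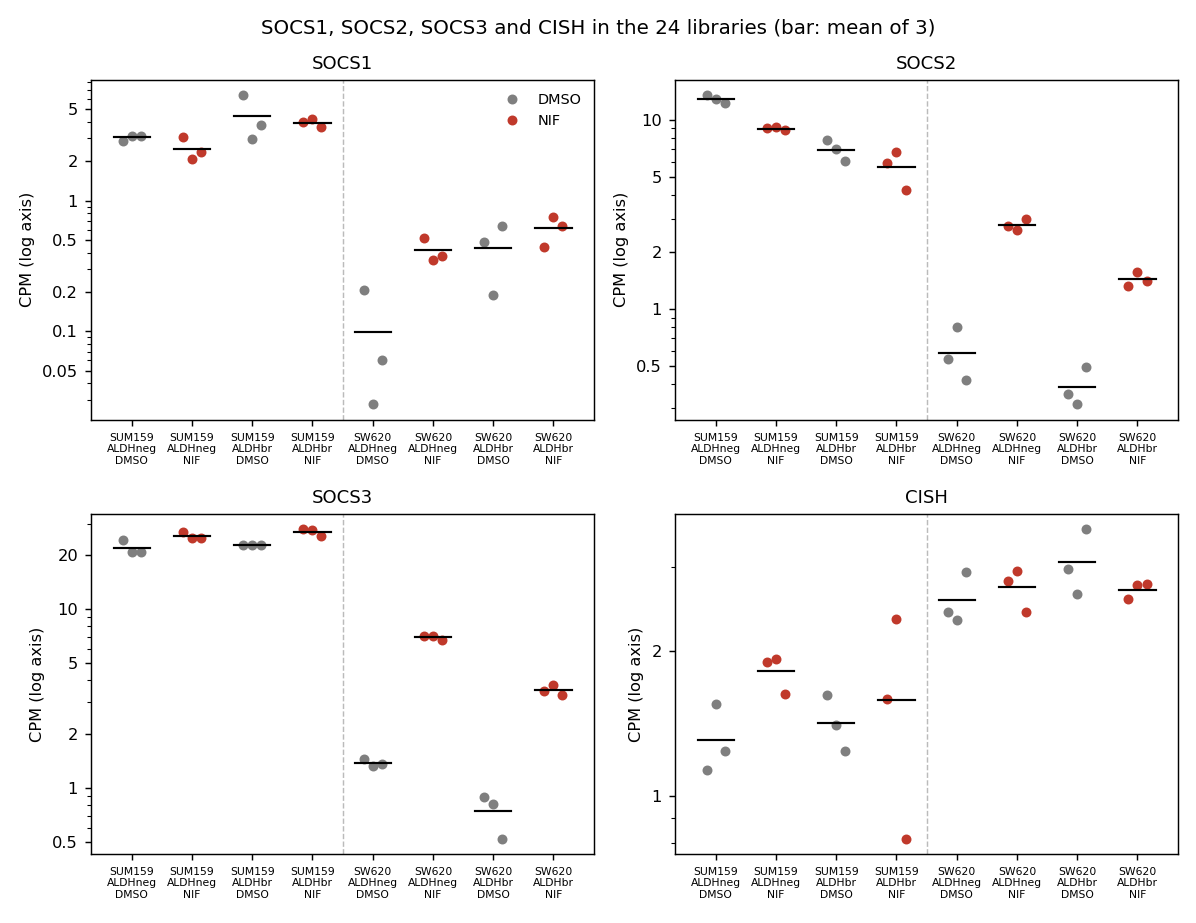
Level of the cytokine-induced brakes SOCS1, SOCS2, SOCS3 and CISH in each library, in CPM on a log axis, by cell line, population and treatment (points are libraries, bars the mean of 3). SOCS3 and SOCS2 lay far lower in SW620 than in SUM159 under DMSO and were higher under NIF in every SW620 library, while CISH groups overlapped between treatments in SW620.

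Under NIF the brakes split by line. In SW620 ALDHbr cells 5 of the 10 genes were called, 4 higher (SOCS2, SOCS3, SOCS6, SOCS7) and 1 lower (PIAS3), where 43.3% of all genes were called, 21.4% higher and 21.9% lower. In SW620 ALDHneg cells 5 were called as well, 4 higher (SOCS1, SOCS2, SOCS3, SOCS7) and 1 lower (PIAS3), beside 45.1% of all genes, 22.3% higher and 22.7% lower. With scaling by library size the calls over all genes in SW620 ALDHneg cells shifted from 3114 higher and 3172 lower to 2578 and 3957, and the calls of the 10 genes were unchanged. In SUM159 ALDHbr cells 1 of 10 was called, SOCS5, which was lower, beside 3.16% of all genes, 0.936% higher and 2.23% lower. In SUM159 ALDHneg cells SOCS5 again was the only call, beside 3.30% of all genes, 1.10% higher and 2.20% lower. With the replicate number as a block, 2 of the 10 were called in SUM159 ALDHbr cells beside 13.3% of all genes. In SUM159 ALDHneg cells that fit called 3 beside 13.2%. The counts of the 10 genes were thus near the background in SW620. The median log2 fold change of the 10 genes was 0.29 in ALDHbr and 0.13 in ALDHneg cells, against -0.01 over all genes in both, and -0.08 and 0.04 in the SUM159 populations, against 0.00 over all genes.

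SOCS3, the inhibitor of gp130 receptors and their JAKs, rose most steadily. In SW620 ALDHbr cells it read 0.894, 0.816 and 0.521 CPM under DMSO (35, 26 and 18 counts) and 3.48, 3.77 and 3.29 CPM under NIF (118, 110 and 98 counts). Every NIF library was above every DMSO library, a 4.68-fold difference (log2 fold change 2.23, SE 0.16, adjusted p = 1.01e-07). In SW620 ALDHneg cells the DMSO libraries read 1.45, 1.33 and 1.35 CPM and the NIF libraries 7.04, 7.06 and 6.72 CPM, again without overlap (log2 fold change 2.32, SE 0.13, adjusted p = 8.52e-09). Even the highest SW620 NIF library stayed below all SUM159 libraries, the lowest of which read 20.8 CPM.

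SOCS3 in SUM159 moved little. ALDHbr cells read 22.7, 22.8 and 22.7 CPM under DMSO and 27.8, 27.5 and 25.5 CPM under NIF, and ALDHneg cells 24.2, 20.8 and 20.9 against 26.9, 25.0 and 25.0 CPM. The groups did not overlap in either population, but the log2 fold changes of 0.24 (95% interval 0.08 to 0.40, adjusted p = 0.105) and 0.22 (95% interval 0.06 to 0.38, adjusted p = 0.134) missed the threshold. The replicate numbers pair the SUM159 libraries, and with the number as a block SOCS3 was called higher in both populations (log2 fold change 0.24, adjusted p = 0.0192, in ALDHbr and 0.22, adjusted p = 0.0274, in ALDHneg). That fit called 2 of the 10 genes in ALDHbr cells (SOCS3 and SOCS5) beside 13.3% of all genes, and 3 in ALDHneg cells (SOCS2, SOCS3 and SOCS5) beside 13.2%.

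SOCS2, the brake of growth hormone receptor signalling, rose in SW620 and was called in neither SUM159 population without the replicate block. SW620 ALDHbr cells read 0.357, 0.314 and 0.492 CPM under DMSO (14, 10 and 17 counts) and 1.33, 1.58 and 1.41 CPM under NIF (45, 46 and 42 counts), which made a log2 fold change of 1.87 (SE 0.25, adjusted p = 3.68e-05). SW620 ALDHneg cells read 0.546, 0.801 and 0.421 CPM against 2.75, 2.61 and 3.01 CPM (log2 fold change 2.22, SE 0.21, adjusted p = 1.14e-06). Neither population showed any overlap. In SUM159 ALDHneg cells, where SOCS2 was highest of all groups, the DMSO libraries read 13.5, 12.9 and 12.3 CPM and the NIF libraries 8.98, 9.16 and 8.79 CPM. All 3 NIF libraries were lower, yet the log2 fold change of -0.52 (95% interval -0.82 to -0.23) had an adjusted p of 0.0557, and it was called with the replicate block (-0.53, adjusted p = 0.00176) and by DESeq2. In SUM159 ALDHbr cells the groups overlapped, at 7.81, 6.97 and 6.02 against 5.93, 6.78 and 4.25 CPM (log2 fold change -0.30, 95% interval -0.62 to 0.01, adjusted p = 0.324).

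SOCS1, which like SOCS3 inhibits the JAKs, was close to the limit of detection in SW620. ALDHneg cells held 8, 1 and 2 counts under DMSO and 18, 13 and 14 under NIF (0.208, 0.0276 and 0.0602 against 0.515, 0.353 and 0.379 CPM). The groups did not overlap and SOCS1 was called (log2 fold change 1.98, SE 0.59, adjusted p = 0.0133), but without DMSO replicate 2 or DMSO replicate 3 it was not (adjusted p up to 0.0577), and without DMSO replicate 1 the log2 fold change was 3.15. In SW620 ALDHbr cells 19, 6 and 22 counts under DMSO stood against 15, 22 and 19 under NIF (log2 fold change 0.45, 95% interval -0.47 to 1.36, adjusted p = 0.425). SUM159 held 68 to 221 counts per library, and neither population was called (log2 fold changes -0.16, adjusted p = 0.785, and -0.27, adjusted p = 0.637). DMSO replicate 1 of SUM159 ALDHbr, at 6.40 CPM, was the highest library of all for this gene.

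CISH, whose upstream window carries the 4 motif matches printed above, was called in no comparison of NIF with DMSO. In SW620 it read 2.96, 2.64 and 3.59 CPM under DMSO and 2.56, 2.74 and 2.75 CPM under NIF in ALDHbr cells, and 2.42, 2.32 and 2.92 against 2.81, 2.93 and 2.41 CPM in ALDHneg cells. The treatments overlapped in both populations, with log2 fold changes of -0.19 (95% interval -0.51 to 0.12) and 0.08 (95% interval -0.23 to 0.40). These intervals leave out a change of the size that SOCS3 or SOCS2 showed in the same libraries. SUM159 ALDHbr cells read 1.62, 1.41 and 1.24 against 1.59, 2.34 and 0.815 CPM, where the NIF libraries spread widely, and ALDHneg cells 1.13, 1.55 and 1.24 against 1.90, 1.93 and 1.63 CPM, which did not overlap (log2 fold change 0.48, 95% interval -0.16 to 1.11, adjusted p = 0.463).

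**Figure D2:**
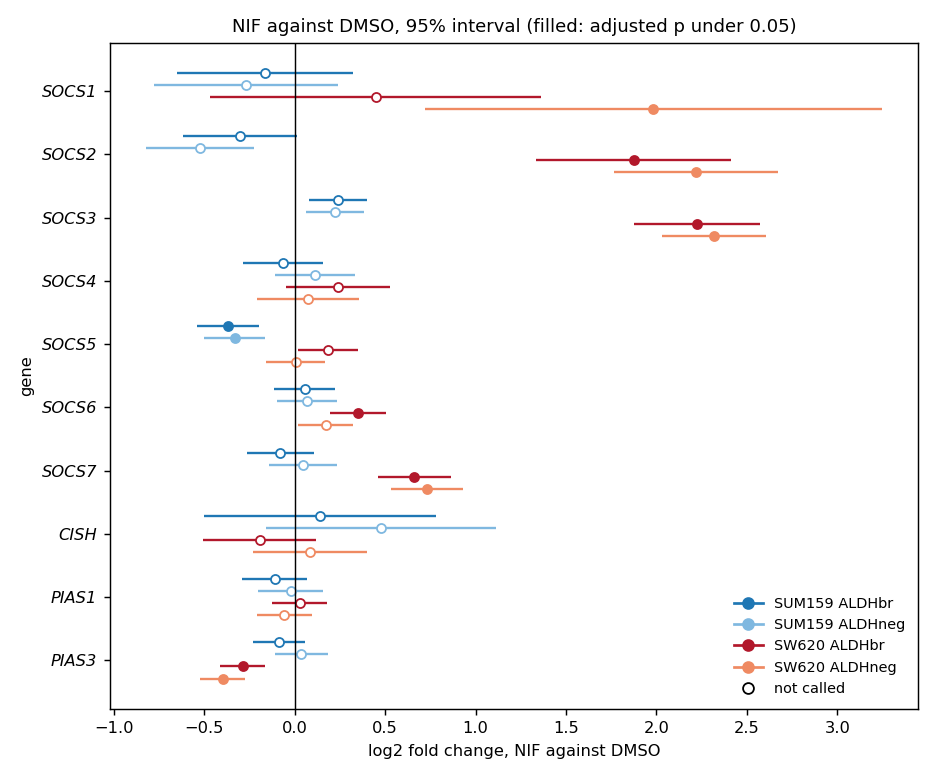
Log2 fold change of each brake under NIF against DMSO with its 95% interval, in both populations of SUM159 and SW620 (filled points, adjusted p under 0.05). The SW620 points for SOCS2 and SOCS3 lie near 2 in both populations, those of SOCS7 between 0.66 and 0.73, and all SUM159 points between -0.52 (SOCS2) and 0.48 (CISH).

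SOCS7, which binds adaptor proteins of growth factor and insulin signalling, was the most abundant brake per kilobase in every SW620 group and rose further. ALDHbr cells read 70.1, 90.8 and 79.3 CPM under DMSO and 142, 129 and 109 CPM under NIF (log2 fold change 0.66, SE 0.09, adjusted p = 6.04e-05). ALDHneg cells read 94.7, 95.7 and 98.9 against 162, 159 and 161 CPM (log2 fold change 0.73, SE 0.09, adjusted p = 1.96e-05). No NIF library overlapped with its DMSO group and the ALDHneg replicates lay closer together than those of ALDHbr. SUM159 read 38.0 to 46.3 CPM in ALDHbr cells under DMSO against 36.5 to 42.0 under NIF, and the log2 fold changes were -0.08 (95% interval -0.27 to 0.10) and 0.05 (95% interval -0.14 to 0.23) in the 2 populations.

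SOCS6, which binds activated receptor tyrosine kinases such as KIT, was called in SW620 ALDHbr cells, at 32.1, 36.4 and 30.6 CPM under DMSO and 42.3, 44.1 and 40.1 CPM under NIF (log2 fold change 0.35, SE 0.07, adjusted p = 0.00125). In SW620 ALDHneg cells it read 38.0, 41.6 and 41.8 against 46.5, 44.3 and 46.7 CPM, which did not overlap either (log2 fold change 0.17, 95% interval 0.02 to 0.32, adjusted p = 0.0618), and it was called there in a fit of only the groups compared. The difference between the populations was not called (log2 difference 0.18, 95% interval -0.04 to 0.39, adjusted p = 0.955). In SUM159 the log2 fold changes were 0.06 and 0.07.

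SOCS5, a brake of the EGF and IL-4 receptors, was the only gene called in SUM159 by the fit without the replicate block. With the block, SOCS3 was called in both SUM159 populations and SOCS2 in ALDHneg cells as well. ALDHbr cells read 29.8, 31.1 and 26.2 CPM under DMSO and 22.3, 24.3 and 21.1 CPM under NIF, a fall by 0.37 on the log2 scale (SE 0.08, adjusted p = 0.0209). ALDHneg cells read 39.1, 37.1 and 35.6 against 30.3, 30.7 and 28.0 CPM, a fall by 0.33 (SE 0.08, adjusted p = 0.0340). Both sets of libraries were separate. The calls were fragile: in ALDHbr cells SOCS5 was not called without DMSO replicate 1, DMSO replicate 2, NIF replicate 1 or NIF replicate 3 (adjusted p up to 0.0996), and in ALDHneg cells without DMSO replicate 1, DMSO replicate 3 or any one of the NIF libraries (adjusted p up to 0.140). With the replicate block they were firmer, at adjusted p = 0.000380 and 0.000713. In SW620, SOCS5 read 24.7 to 28.9 CPM under DMSO and 28.8 to 32.0 CPM under NIF in ALDHbr cells (log2 fold change 0.18, 95% interval 0.02 to 0.35, adjusted p = 0.0693) and gave 0.00 in ALDHneg cells.

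SOCS4, the close relative of SOCS5, was not called in any comparison of NIF with DMSO. Its log2 fold changes ran from -0.06 in SUM159 ALDHbr to 0.24 in SW620 ALDHbr cells, where the libraries read 28.3, 34.3 and 21.9 CPM under DMSO and 37.4, 32.9 and 29.3 CPM under NIF (95% interval -0.05 to 0.53). DMSO replicate 2 was the highest of its group for SOCS4, and SOCS4 and SOCS5 were both called in SW620 ALDHbr cells when it was left out. The same library was the highest of its group for SOCS5, SOCS6, SOCS7, PIAS1 and PIAS3.

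PIAS3, the inhibitor of STAT3, fell in SW620. ALDHbr cells read 35.9, 40.3 and 37.0 CPM under DMSO and 31.7, 29.7 and 31.3 CPM under NIF (log2 fold change -0.29, SE 0.06, adjusted p = 0.00115). ALDHneg cells read 50.4, 48.3 and 47.2 against 36.3, 37.4 and 37.6 CPM (log2 fold change -0.40, SE 0.06, adjusted p = 5.77e-05). All NIF libraries were below their DMSO group. In SUM159 the log2 fold changes were -0.09 (95% interval -0.23 to 0.06) and 0.04 (95% interval -0.11 to 0.18). PIAS1 was not called in any of the 4 comparisons, with log2 fold changes from -0.11 to 0.03, and in SW620 its intervals lay within -0.21 and 0.18.

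**Figure D3:**
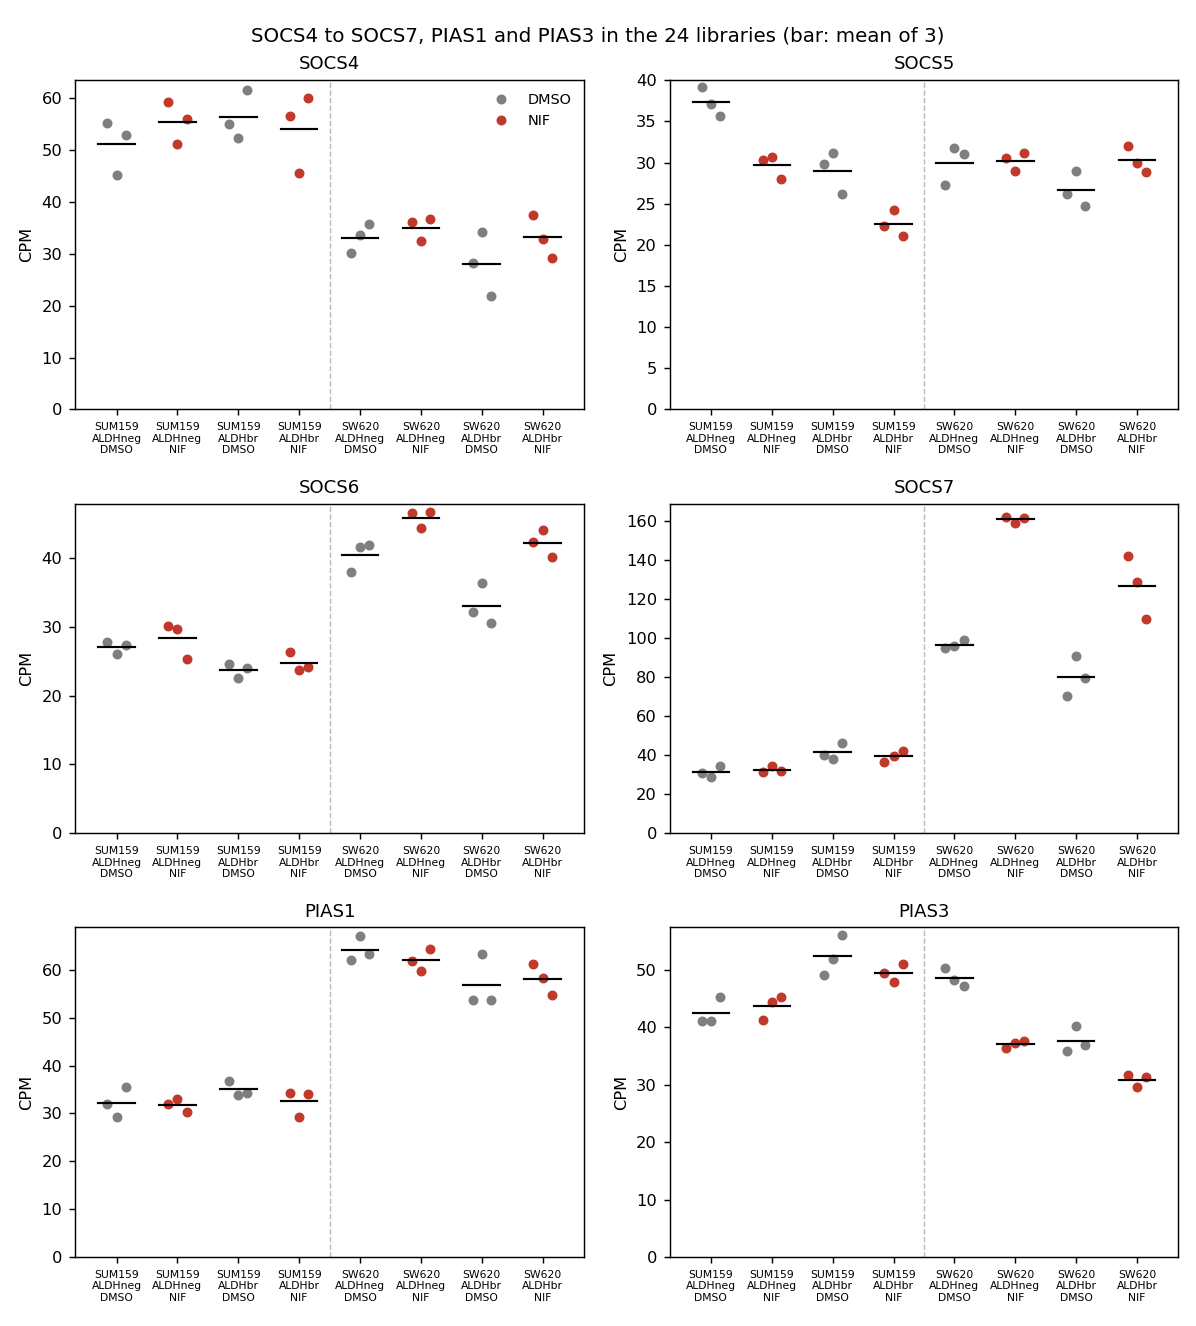
Level of SOCS4, SOCS5, SOCS6, SOCS7, PIAS1 and PIAS3 in each library, in CPM from 0, by cell line, population and treatment (points are libraries, bars the mean of 3). SOCS7 was higher and PIAS3 lower under NIF in every SW620 library of both populations, and SOCS5 was lower under NIF in every SUM159 library.

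With both populations under both treatments, the NIF effect can be compared between ALDHbr and ALDHneg cells. The difference of the NIF effects between the populations was called for none of the 10 genes in either line (edgeR quasi-likelihood test), where 0.00% of all genes in SUM159 and 0.00717% in SW620 were called. At an unadjusted p under 0.05 the count was 0 of 10 in both lines. DESeq2 called 0 in both, but in SW620 it gave no adjusted p for 2 of the 10 genes. For SOCS3 the difference in SW620 was -0.09 (95% interval -0.58 to 0.40) and for SOCS2 -0.35 (95% interval -1.10 to 0.40), and the widest interval was that of SOCS1 (-1.54, 95% interval -3.12 to 0.05, adjusted p = 0.907). In SUM159 the differences ran from -0.34 for CISH to 0.22 for SOCS2.

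Under DMSO the populations themselves differed in 4 of the 10 genes in each line, beside 23.0% of all genes in SUM159 and 11.3% in SW620. In SUM159, SOCS2 was lower in ALDHbr than in ALDHneg cells by 0.90 on the log2 scale (SE 0.14, adjusted p = 0.000288), at 7.81, 6.97 and 6.02 against 13.5, 12.9 and 12.3 CPM. SOCS5 was lower too (-0.37, SE 0.08, adjusted p = 0.00378), whereas SOCS7 (0.40, SE 0.09, adjusted p = 0.00396) and PIAS3 (0.30, SE 0.07, adjusted p = 0.00491) were higher. With the replicate block SOCS1 (0.50, adjusted p = 0.0411) and SOCS6 (-0.19, adjusted p = 0.0317) were called as well, 6 of 10 beside 36.0% of all genes. In 7 of 10 mesenchymal markers SUM159 ALDHbr cells were lower than ALDHneg cells, and whether that had a part in these differences was not tested.

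In SW620, SOCS3 was lower in ALDHbr than in ALDHneg cells, at 0.894, 0.816 and 0.521 against 1.45, 1.33 and 1.35 CPM (log2 difference -0.88, SE 0.18, adjusted p = 0.00746). PIAS3 was lower at 35.9, 40.3 and 37.0 against 50.4, 48.3 and 47.2 CPM (-0.37, SE 0.06, adjusted p = 0.000988), and SOCS6 was lower by 0.29 on the log2 scale (SE 0.07, adjusted p = 0.0185). SOCS1 was called higher in ALDHbr cells (2.08, SE 0.58, adjusted p = 0.0363) on 19, 6 and 22 against 8, 1 and 2 counts, which overlap. The PIAS3 call held in all 14 alternatives run. SOCS1 and SOCS6 were not called without ALDHbr replicate 1, ALDHbr replicate 3, ALDHneg replicate 2 or ALDHneg replicate 3, and the log2 difference of SOCS1 was 3.24 without ALDHneg replicate 1. SOCS3 was called with any one library left out, but not in a fit of the 2 groups alone (adjusted p = 0.0621). Without ALDHbr replicate 2, 8 of the 10 were called (SOCS4, SOCS5, SOCS7 and PIAS1 in addition) and 5487 genes in place of 1577. The comparisons of NIF with DMSO in ALDHbr cells use the same DMSO libraries, so the 2 sets of values are not independent.

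**Figure D4:**
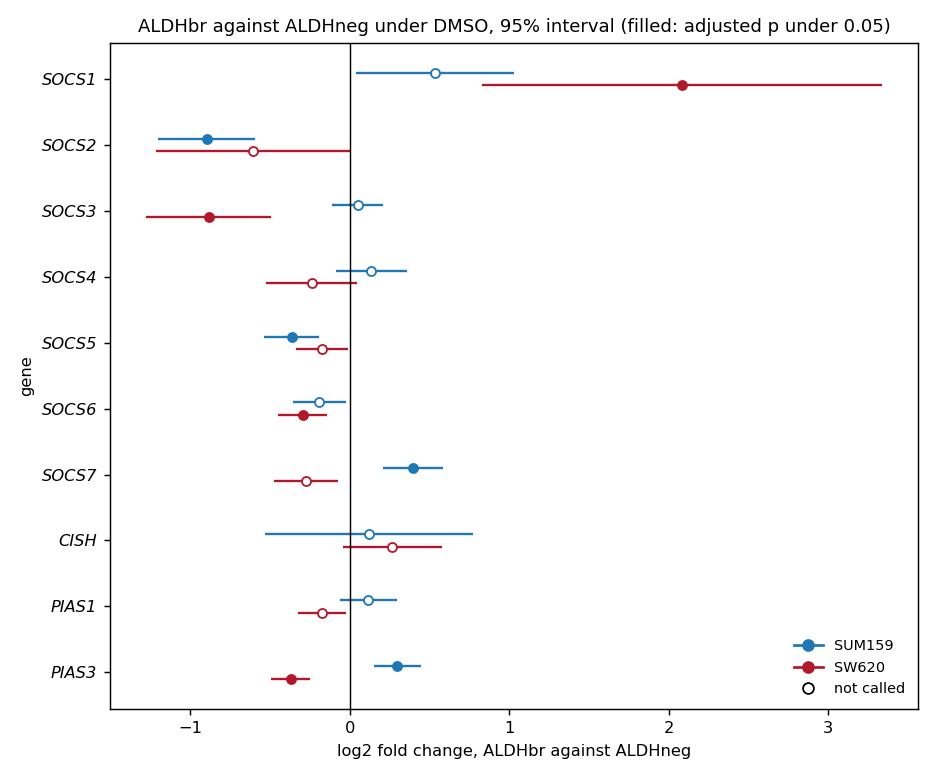
Log2 difference of each brake between ALDHbr and ALDHneg cells under DMSO with its 95% interval, in SUM159 and SW620 (filled points, adjusted p under 0.05). PIAS3 lies at 0.30 in SUM159 and at -0.37 in SW620, and SOCS2 below 0 in both lines.

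The NIF effect was then compared between the lines in a fit of all 24 libraries. In ALDHbr cells it differed in 4 of the 10 genes (SOCS2, SOCS3, SOCS5 and SOCS7) beside 23.1% of all genes, and in ALDHneg cells in 6 (SOCS1, SOCS2, SOCS3, SOCS5, SOCS7 and PIAS3) beside 22.4%. SOCS3 responded more in SW620 by 1.98 (SE 0.17, adjusted p = 4.40e-09) in ALDHbr and by 2.10 (SE 0.14, adjusted p = 1.13e-10) in ALDHneg cells, on the log2 scale. For SOCS2 the differences were 2.17 (SE 0.29, adjusted p = 7.06e-06) and 2.75 (SE 0.25, adjusted p = 1.78e-08). SOCS6 in ALDHbr cells was just short of the threshold (0.29, adjusted p = 0.0502) and was called with the replicate block (0.29, adjusted p = 0.0328), where 5 of 10 were called beside 26.9% of all genes. CISH gave -0.33 (95% interval -1.01 to 0.36) and -0.39 (95% interval -1.07 to 0.29).

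Across the 24 libraries, with each line centred on its own mean, the genes whose log2 CPM followed a brake most closely were listed, out of 10158 genes. This was done for 6 of the brakes called in a comparison of NIF with DMSO. SOCS3 was followed by NLRC5 (Pearson r 0.981), PITPNM2 (0.978) and APBB2 (0.970), and SOCS2 by SP100 (0.948), TTC7A (0.946) and RASA3 (0.934). SOCS7 was followed by LRP8 (0.972), ITPR3 (0.965) and TMEM181 (0.964). For SOCS5 the closest was RUNX2 (0.916), for SOCS6 ZNF281 (0.897) and for SOCS1 GCAT (0.845). SOCS3 itself had an r of 0.855 with SOCS7, 0.844 with SOCS2 and -0.09 with CISH. The libraries share groups and NIF effects, so these values describe the data and carry no test.

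The rest of the pathway was read from lists of genes by role, and each count is to be read against the 43.3% (ALDHbr) and 45.1% (ALDHneg) of all genes called in SW620 and the 3.16% and 3.30% in SUM159. The lists were counted without the replicate block and were not refitted with it. In SUM159 the block called 13.3% and 13.2% of all genes, so the low counts there hold for the unpaired fits only. Of 4 cytokines of the IL-6 family tested in SUM159, none was called in ALDHbr cells by edgeR (2 at an unadjusted p under 0.05, 0 by DESeq2) and 1 fell in ALDHneg cells. This was IL6 itself, named after its values were seen (6.40 against 16.9 CPM, log2 fold change -1.39, SE 0.29, adjusted p = 0.0183). In SW620 all 3 tested rose in both populations, led in ALDHbr cells by CLCF1, a ligand of the CNTF receptor, from 19.4 ± 1.05 to 67.2 ± 3.32 CPM (log2 fold change 1.79, SE 0.06, adjusted p = 5.66e-11). Of 14 receptors tested in SW620, 5 rose and 3 fell in each population. IL6R, the IL-6 binding chain, rose from 3.66 ± 0.315 to 28.7 ± 3.53 CPM in ALDHbr cells (log2 fold change 2.97, SE 0.10, adjusted p = 4.72e-11). In SUM159 edgeR called 1 of 15 receptors lower in each population, in ALDHbr cells IFNGR1, a chain of the interferon gamma receptor (-0.33, SE 0.08, adjusted p = 0.0387). At an unadjusted p under 0.05 there were 6 of 15 in each population, and DESeq2 called 3 in each.

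The kinases, STATs, other brakes and partner proteins were called in SW620 at shares close to or below the 43.3% and 45.1% of all genes. Of the 4 JAK family kinases tested in SW620, 2 rose in each population, JAK2 by 0.76 in ALDHbr cells (SE 0.12, adjusted p = 0.000142), and 0 of 3 were called in either population of SUM159 by edgeR, by DESeq2 or at an unadjusted p under 0.05. Of 7 STATs, 2 rose in SW620 ALDHbr cells, led by STAT5B (0.42, SE 0.05, adjusted p = 2.99e-05), and 3 in ALDHneg cells. In SUM159 ALDHbr cells 1 fell, STAT6, which carries IL-4 signals (-0.36, SE 0.06, adjusted p = 0.00532), and in ALDHneg cells edgeR called none (2 at an unadjusted p under 0.05, 1 by DESeq2). Of 9 other brakes, 3 rose in each SW620 population, led in ALDHbr cells by SH2B3, an adaptor that restrains JAK2 (1.19, SE 0.11, adjusted p = 1.71e-06). Among the ubiquitin ligase partners of the SOCS box 2 of 6 fell in each SW620 population, RBX1 by 0.31 in ALDHbr cells (SE 0.10, adjusted p = 0.0211), and of the SUMO machinery used by PIAS proteins 2 of 6, SAE1 by 0.49 (SE 0.06, adjusted p = 2.07e-05). In SUM159 edgeR called none of the 9 other brakes (3 in each population at an unadjusted p under 0.05, 1 in ALDHbr and 2 in ALDHneg cells by DESeq2). Of the last 2 lists none passed there in either population, by edgeR, by DESeq2 or at an unadjusted p under 0.05.

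Of 17 other genes known to be induced by STATs, 13 rose and 2 fell in each SW620 population, where 21.4% of all genes were called higher and 21.9% lower in ALDHbr and 22.3% and 22.7% in ALDHneg cells, with a median log2 fold change of 0.46 in ALDHbr and 0.60 in ALDHneg cells against -0.01 over all genes. The highest in ALDHbr cells was SERPINA3, an acute phase protein, from 0.696 ± 0.0780 to 3.38 ± 0.499 CPM (log2 fold change 2.27, SE 0.17, adjusted p = 1.06e-07). In SUM159 0 of 17 were called in either population by edgeR without the replicate block, with medians of -0.09 and -0.04. At an unadjusted p under 0.05 there were 3 in ALDHbr and 4 in ALDHneg cells, and DESeq2 called 0 and 1. Many of these genes also answer to other signals. Immediate early genes, which stress and growth factors induce without a STAT, rose with them in SW620, 9 of 12 in each population, ATF3 by 1.35 in ALDHbr cells (SE 0.09, adjusted p = 7.38e-08). Their summed level went from 569 to 613 CPM under DMSO to 877 to 914 CPM under NIF in SW620 ALDHbr cells, and from 539 to 548 CPM to 817 to 831 CPM in ALDHneg cells. In SUM159 ALDHbr cells 1 of 13 rose, NR4A1 (0.41, SE 0.08, adjusted p = 0.00749), and in ALDHneg cells 2 of 13, and the summed level overlapped between treatments in both. The colon epithelial markers of SW620 moved under NIF as well, with 2 of 10 called higher and 4 lower in ALDHbr cells and 2 higher and 3 lower in ALDHneg cells, where their sum went from 15926 to 16918 CPM down to 14440 to 14782 CPM. The summed mesenchymal markers of SW620 also moved, from 8.07 to 10.0 CPM under DMSO to 23.6 to 26.5 CPM under NIF in ALDHbr cells, where 1 of 5 tested was called higher and 1 lower and 2 to 3 of the 10 had no count in a group. The part of any of these, or of the lower ALDH1A1, in the rise of SOCS3, SOCS2 and SOCS7 was not tested.

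**Figure D5:**
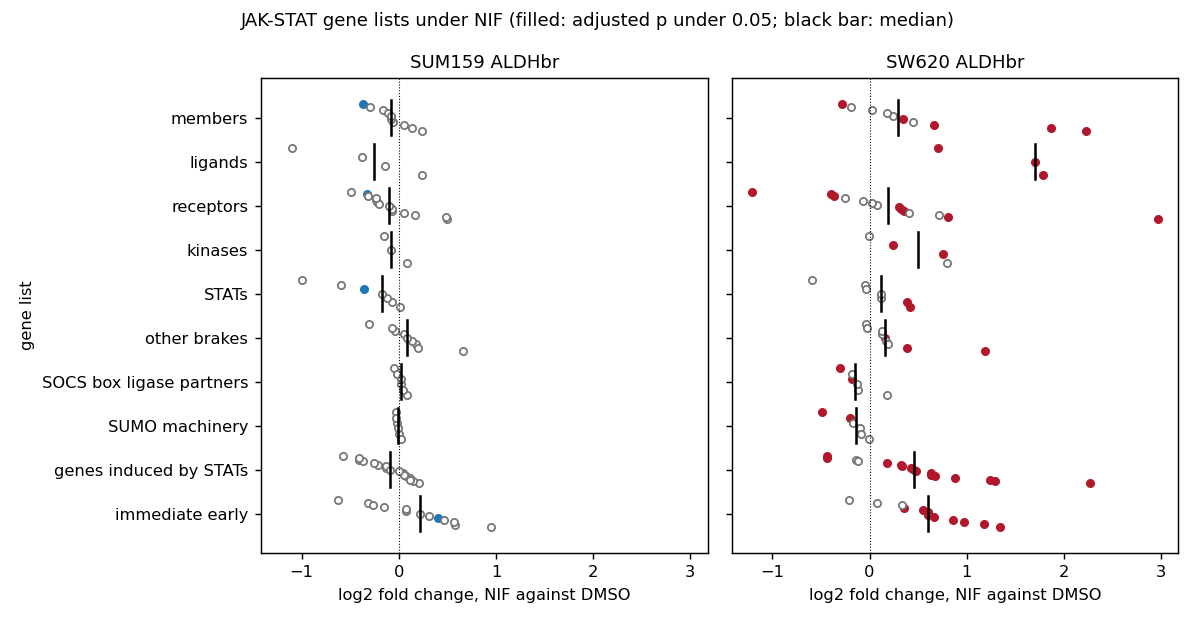
Log2 fold change under NIF against DMSO in ALDHbr cells of SUM159 and SW620 for the 10 brakes and 9 other gene lists of the pathway (points are genes, filled where the adjusted p was under 0.05, black bars the median of a list). In SW620 13 of 17 STAT-induced genes and all 3 ligands tested lie to the right of 0 as calls, and in SUM159 nearly all points are open (fits without the replicate block).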

How the data were processed

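For each of the 24 libraries the authors deposited counts of reads by gene, not normalized. Libraries were made with a stranded total RNA kit. The submitters' processing notes name FastQC, STAR and GRCh38. The counting tool, annotation and handling of shared or antisense reads are not given in the sources used here, so overlapping genes are uncertain. The analysis used edgeR 4.0.16 under R 4.3.3: filterByExpr by group, TMM, quasi-likelihood F tests and Benjamini-Hochberg adjustment at 0.05, on 12 libraries per line or on all 24 between lines. CPM use TMM-adjusted library sizes over all 24 libraries, with a prior count of 2 on the log2 scale. Kilobases are union exon lengths of GENCODE genes on GRCh37, used as lengths only. Standard errors were derived from F. The steps were tested on simulated counts.

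All 10 genes are named. Of every other list the called gene with the largest change in ALDHbr cells is named, if its mean log2 CPM is 1 or more. Members and lists were chosen with earlier results of these data known. Replicates of one group differed by more than sampling noise (chi-square per gene 1.97 to 46.1 over 24 pairs). SW620 ALDHbr DMSO replicate 2 stood out from its group, at 46.1 and 35.9 against replicates 1 and 3, which gave 6.52 with each other. The next highest value was 30.1, between replicates 1 and 3 of SW620 ALDHbr under NIF. After the group mean was taken off, libraries with the same number correlated at 0.126 to 0.452 in SUM159, over 0.1 in 18 of 18 comparisons, so those numbers were taken as pairs. In SW620 they ran from -0.28 to 0.213. The settings tried instead were no filter, a minimum of 10 counts in every library, scaling by RLE or by library size alone, DESeq2 1.42.0, a replicate block, only the groups compared, all 24 libraries in one fit, and each library left out. The genes most like PIAS3 in pattern are not reported here.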

Additional observations from a re-analysis of the deposited data

Results flagged for a closer look

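The response to NIF differed between SW620 and SUM159 by the test of the difference itself (edgeR quasi-likelihood test in all 24 libraries, adjusted p under 0.05) in 10 cases, given here as the log2 fold change in SW620 minus that in SUM159. In ALDHbr cells the differences were 2.17 for SOCS2, 1.98 for SOCS3, 0.55 for SOCS5 (adjusted p = 0.000949) and 0.74 for SOCS7 (adjusted p = 0.000225). In ALDHneg cells they were 2.26 for SOCS1 (adjusted p = 0.0107), 2.75 for SOCS2, 2.10 for SOCS3, 0.34 for SOCS5 (adjusted p = 0.0286), 0.69 for SOCS7 (adjusted p = 0.000443) and -0.43 for PIAS3 (adjusted p = 0.000910). That of SOCS1 in ALDHneg cells was not called without SW620 ALDHneg DMSO replicate 2 (adjusted p = 0.0520) and was 3.43 without SW620 ALDHneg DMSO replicate 1, and that of SOCS5 in ALDHneg cells was lost with library-size scaling and without any of 5 single libraries (adjusted p up to 0.0984).

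Under DMSO, 2 genes lay on opposite sides between the populations of the 2 lines without overlap of libraries. Between the populations 5 of the 10 genes did not overlap in SUM159 and 4 in SW620. The share of all genes without overlap in either line was not counted, nor was the share on opposite sides. Whether 5, 4 or 2 is unusual therefore cannot be said. The log2 difference of PIAS3 (ALDHbr minus ALDHneg) was 0.30 in SUM159 and -0.37 in SW620, and SOCS7 gave 0.40 in SUM159 and -0.27 in SW620, of which the last was not called (adjusted p = 0.0723). The difference between the lines in these contrasts was not tested.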

How the results depend on the processing

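Over 39 called results and 582 alternative values, 552 kept their direction and their call, 30 kept the direction only and 0 reversed. Members that were not called changed sign in 40 of 1143 values. The members called moved by more than 1.5 times in these cases. For NIF in SUM159 ALDHbr cells 1 became 2 with the replicate block, 0 with only the groups compared and 0 to 1 with a library left out. In SUM159 ALDHneg cells 1 became 3 with the replicate block, 2 without a filter, by DESeq2, with only the groups compared and in the fit of all 24 libraries, and 0 to 1 with a library left out. For ALDHbr against ALDHneg in SW620 under DMSO 4 became 1 with only the groups compared and 2 to 8 with a library left out. The SW620 numbers share only a number. There the replicate block lost SOCS1 between the populations (adjusted p = 0.0542) and changed no other call.

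Over all genes, NIF called 473 and 493 genes in SUM159 ALDHbr and ALDHneg cells, 1994 and 1970 with the block, 859 and 856 by DESeq2, 725 and 743 in the fit of all libraries and as few as 222 and 192 with a library left out (292 in ALDHneg cells with only the groups compared). Between the SUM159 populations the block gave 5388 in place of 3432. Between the SW620 populations 1577 became 712 to 5487 with a library left out and 729 with only the groups compared. The difference of the NIF effects between populations gave 0 to 6 genes in SUM159 and 1 to 28 in SW620 (28 by DESeq2, 27 without ALDHbr DMSO replicate 2). In SW620 and between the lines SOCS1 was not tested under the filter of 10 counts in every library. Depth limits SOCS1, SOCS2 and SOCS3 in SW620, where some libraries hold under 20 counts (for SOCS3 1 library, with 18). The cause of these changes was not tested.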
